A study of Homo sapiens and Mus musculus with 29 samples.

Results

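The 48 genes described here are the interferon response genes and the antigen presentation genes of a pancreatic ductal adenocarcinoma (PDAC) RNA-seq series and were listed by symbol. All 48 were found among the 58719 genes of the human table. A mean of at least 0.3 RPKM (reads scaled to gene length and sequencing depth) over the 21 human samples was reached by 44 of the 48 genes and by 19900 of all genes, and those 19900 genes were tested. By role, the 44 tested genes were 5 of 5 genes of interferon signaling, 24 of 24 effector genes, 11 of 11 genes of major histocompatibility complex (MHC) class I presentation and 4 of 8 of class II presentation. The 4 genes under the minimum were all of class II: CIITA, HLA-DRA, HLA-DPA1 and HLA-DPB1. In the mouse table, 46 genes correspond to 41 of the 48, and 19 of the 46 reached the minimum, against 16682 of 54446 genes.

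The study asked what the nuclear receptor HNF4G and the forkhead factor FOXA1 do in PDAC tumors and their metastases. HPAF-II, a human PDAC cell line of the classical subtype, was grown as orthotopic xenografts in the pancreas of NSG mice, which lack T, B and natural killer cells. The 4 tumor groups were the Cas-9-EV control (3 tumors), HNF4G-KO with EV (4 tumors), Cas-9 + FOXA1, called FOXA1-OE here (3 tumors), and HNF4G-KO + FOXA1-OE (5 tumors from 4 mice). Metastases were taken from HNF4G-KO mice (2 samples) and from HNF4G-KO + FOXA1-OE mice (4 samples from 3 mice). Both HNF4G-KO metastases were from the peritoneum. Among the HNF4G-KO + FOXA1-OE metastases, number 1 was from the spleen, 2 and 3 were labelled peri mets in fat, and 4 was from the peritoneum. Site thus varied among the metastases and was not adjusted for. The HNF4G-KO cells were a pool of CRISPR clones, FOXA1 was introduced by lentivirus, the control and FOXA1-OE cells carried Cas-9 without the knockout, no drug was given, and the mice were killed at a humane endpoint, so tumors were not collected at 1 fixed time. The labels give no age for the mice. In addition, a tumor cell line and a liver metastasis cell line from KPC mice, a genetically engineered PDAC model, were sequenced as 4 libraries each, labelled WT. The methods describe the replicates of the RNA-seq experiments as biological, and neither they nor the labels say whether the 4 libraries of a line came from separate cultures.

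Type I and type III interferons act through receptors that activate JAK kinases and a complex of STAT proteins with IRF9, which binds the interferon-stimulated response element (ISRE) and switches on effector genes such as the OAS, IFIT, MX and IFITM families. Interferon gamma acts through STAT dimers on gamma-activated sites (GAS) and through IRF1, and raises the guanylate-binding proteins and the genes of antigen presentation. Class I molecules, made of an HLA heavy chain and B2M, present peptides cut by the immunoproteasome and carried by TAP1 and TAP2 to CD8 T cells on nearly all cells, and tumor cells often lower them, whereas class II molecules depend on CIITA and are mostly made by immune cells.

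The promoters of these genes can be set beside the expression values. RefSeq entries (GRCh38.p14) were present for 36 of the 48 genes, and the 250 bases before the transcription start were searched on both strands. The ISRE core, written here as GAAANNGAAA (TTTCNNTTTC on the other strand), was found in 19 of 36 promoters (52.8%), compared with 3.02% of all 35116 promoters. It was present in 13 of 17 effector promoters, 5 of 9 class I promoters, 1 of 4 signaling promoters and 0 of 6 class II promoters. The GAS core TTCNNNGAA was found in 7 of 36 (19.4%), against 6.57% of all promoters. The forkhead motif TGTTTAC, which FOXA proteins recognize, was in 0 of 36 and in 2.98% of all. A match is a description of letters and not a measured binding site, and neighboring ISRE matches can overlap. The 150 bases before the start are shown for members that the results below turn on, 5′ to 3′ on the strand of the gene, with ISRE matches in capitals and coordinates in GRCh38.
OAS1, chr12:112906812-112906961, plus strand: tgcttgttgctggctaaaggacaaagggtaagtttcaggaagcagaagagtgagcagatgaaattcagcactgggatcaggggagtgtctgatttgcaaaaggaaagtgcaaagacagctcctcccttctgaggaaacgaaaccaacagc
OAS3, chr12:112938324-112938473, plus strand: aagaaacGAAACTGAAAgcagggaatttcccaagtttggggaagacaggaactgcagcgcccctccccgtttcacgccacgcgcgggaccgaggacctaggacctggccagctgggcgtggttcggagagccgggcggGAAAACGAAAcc
ISG15, chr1:1013347-1013496, plus strand: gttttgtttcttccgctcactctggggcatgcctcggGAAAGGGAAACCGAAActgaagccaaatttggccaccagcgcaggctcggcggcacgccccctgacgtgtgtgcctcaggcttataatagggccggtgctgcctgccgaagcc
IFIT1, chr10:89392473-89392622, plus strand: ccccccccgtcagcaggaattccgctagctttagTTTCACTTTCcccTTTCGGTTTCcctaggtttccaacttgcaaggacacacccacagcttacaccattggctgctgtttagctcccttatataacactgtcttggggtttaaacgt
XAF1, chr17:6755896-6756045, plus strand: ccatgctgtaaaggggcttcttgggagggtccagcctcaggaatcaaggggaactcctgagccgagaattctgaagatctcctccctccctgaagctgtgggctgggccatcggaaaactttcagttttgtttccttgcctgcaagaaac
IFITM3, chr11:320861-321010, minus strand: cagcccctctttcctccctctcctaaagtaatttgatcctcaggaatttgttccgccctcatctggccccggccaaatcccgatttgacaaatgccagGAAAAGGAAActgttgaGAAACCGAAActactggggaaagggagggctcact
HLA-B, chr6:31357180-31357329, minus strand: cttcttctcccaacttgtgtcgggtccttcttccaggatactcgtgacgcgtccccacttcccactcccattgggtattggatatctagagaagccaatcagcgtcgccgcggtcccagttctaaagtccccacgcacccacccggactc
TAP1, chr6:32853705-32853854, minus strand: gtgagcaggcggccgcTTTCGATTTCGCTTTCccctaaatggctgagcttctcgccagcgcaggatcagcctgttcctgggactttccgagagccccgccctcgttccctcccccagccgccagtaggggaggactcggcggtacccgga

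In OAS3, the first match begins 143 bases and the second 12 bases before the start, whereas the 2 matches of ISG15 overlap in 1 stretch beginning 113 bases before it. IFITM3, IFIT1 and TAP1 hold 2 matches each. No match to this ISRE pattern was present in these windows of OAS1, XAF1 and HLA-B. The pattern requires 2 bases between its GAAA parts, so gaaacgaaa in OAS1, with 1 base between, was not counted. The genes that differed below thus include genes with and without a match to the pattern as written.

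The human libraries held about 16.57 to 34.78 mapped reads, in units of 1000000, and the mouse libraries 15.05 to 22.2, as estimated from the smallest steps between RPKM values. The tumor epithelium markers were high in every human sample, with KRT8 at 609 to 1537 RPKM and EPCAM at 195 to 549 RPKM. The HNF4G transcript reached 3.47, 2.48 and 2.57 RPKM in control libraries but 7.1, 8.42, 5.72 and 7.11 RPKM in HNF4G-KO tumors, that is, it was higher in the group labelled knockout. A transcript can remain after a gene is cut, so this level does not check the knockout, and HNF4G-KO below names the group as labelled. FOXA1 reached 0.932, 0.679 and 0.519 RPKM in control libraries, 6.32, 8.18 and 0.763 RPKM in the FOXA1-OE tumors, 12, 5.76, 23.1, 6.5 and 4.65 RPKM in the HNF4G-KO + FOXA1-OE tumors and 0.535, 17.9, 1.3 and 1.55 RPKM in the HNF4G-KO + FOXA1-OE metastases. FOXA1-OE tumor 3 and HNF4G-KO + FOXA1-OE metastases 1, 3 and 4 therefore had FOXA1 near or below the HNF4G-KO tumors, at 1.26, 1.34, 1.36 and 1.87 RPKM. Long genes were higher against short genes in the HNF4G-KO tumors (0.21 to 0.28 on the log2 scale) than in the control tumors (-0.25 to 0.02). Mouse host cells can add reads that align to human genes, and in bulk samples fewer cells of a type and less RNA per cell cannot be told apart. Host stroma markers added up to 58.8 to 196 RPKM in control and 51.1 to 73 RPKM in HNF4G-KO tumors. Host pancreas markers added up to 6.18 to 686 RPKM in control and 0.457 to 12 RPKM in HNF4G-KO tumors. The groups overlapped in both sums. Of 15 host leukocyte markers, 7 passed the minimum, and these added up to 22.6 to 27.3 RPKM for control tumors, 7.26 to 9.8 RPKM in the HNF4G-KO tumors, 19.1 to 26.1 RPKM in the FOXA1-OE tumors and 5.94 to 12.2 RPKM in the HNF4G-KO + FOXA1-OE tumors. CD14 made up most of this sum. SPI1 reached at most 5.45, C1QB 3.06, CSF1R 3.05, AIF1 1.9 and LAPTM5 1.53 RPKM in any human sample. PTPRC, TYROBP, C1QA and C1QC were at or below 0.331 RPKM in every human sample. In the KPC cell lines Cd14 was at 38.76 to 47.05 RPKM, while Csf1r, C1qb and Spi1 were at or below 0.185 RPKM. Whether the CD14 reads of the xenografts came from host or tumor cells was not tested.

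**Figure D1:**
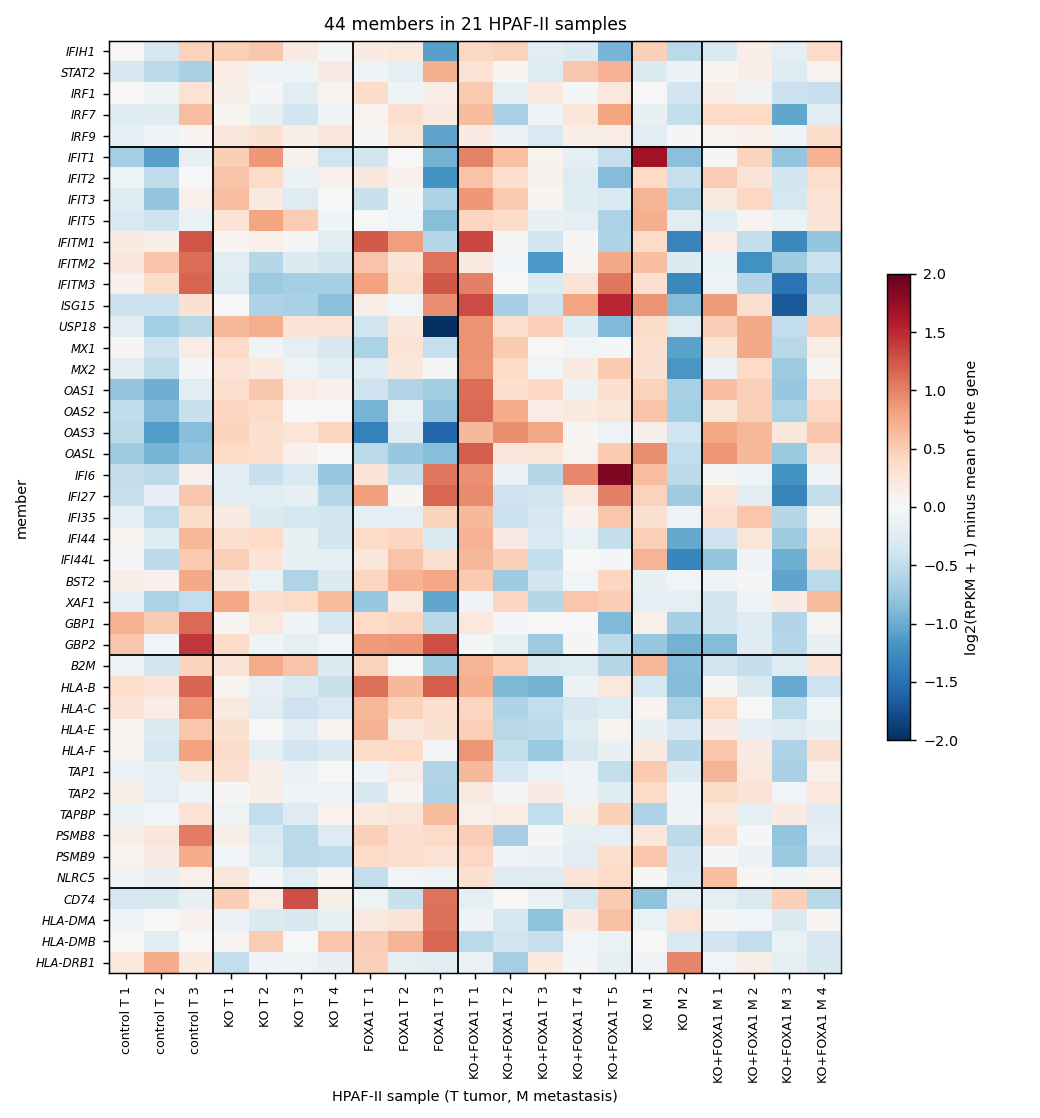
Level of the 44 tested genes in each of the 21 HPAF-II samples, as log2(RPKM + 1) minus the mean of the gene over all samples, with genes ordered by role and samples by group. OAS1, OAS2, OAS3 and OASL are at or above their means in the HNF4G-KO tumors and below them in the control tumors, while HNF4G-KO + FOXA1-OE tumor 1 is high and HNF4G-KO + FOXA1-OE metastasis 3 low across most effector genes.

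The first comparison asked how HNF4G-KO changed these genes in primary tumors. The HNF4G-KO tumors had higher mRNA of 3 oligoadenylate synthetase genes, OAS1, OAS3 and OASL, and of XAF1 than the control tumors, and lower IFITM2. These were 5 of the 44 genes (4 higher, 1 lower), whereas 9.33% of all 19900 genes passed the limma test at an adjusted p of 0.05 (4.96% higher, 4.37% lower), so the share of the members that passed was close to the background. All 5 were effector genes, 5 of 24, and 0 of 5 signaling, 0 of 11 class I and 0 of 4 class II genes passed. With only these 2 groups fitted, 16 members passed, and the split by role changed to 10 effector, 2 signaling (STAT2 and IRF9), 2 class I (HLA-B and PSMB9) and 2 class II genes (CD74 and HLA-DRB1). The share of all genes that passed in that fit is not given here, so these 16 have no background beside them. An unadjusted p under 0.05 was reached by 18 of 44 members and by 27.6% of all genes. The members did not move one way, with 22 log2 fold changes above 0 and 22 below, and a median of -0.02 beside -0.00 for all genes.

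The OAS enzymes sense double-stranded RNA and make the short oligoadenylates that activate RNase L. OAS3 was at 34.4, 22.8 and 27.4 RPKM in control tumors, 69.4, 63.6, 60.1 and 68.4 in HNF4G-KO tumors, 19.1, 42.5 and 16.4 in FOXA1-OE tumors and 80.0, 97.2, 86.4, 52.2 and 47.2 in HNF4G-KO + FOXA1-OE tumors. All 4 HNF4G-KO tumors lay above all 3 control tumors, and its log2 fold change, on the log2(RPKM + 1) scale used for all fold changes here, was 1.20 ± 0.30, adjusted p = 0.0276 (HNF4G-KO minus control, ± SE). Group means were 28.2 ± 5.85 RPKM (SD, n = 3) in the control and 65.4 ± 4.35 RPKM (SD, n = 4) in HNF4G-KO tumors. OASL, the family member without synthetase activity, was at 17, 14.4 and 15.9 RPKM in control tumors, 37.9, 36.3, 30.2 and 28.5 in HNF4G-KO tumors, 19.3, 16.5 and 15.4 in FOXA1-OE tumors and 67.2, 33.5, 33.9, 29.9 and 41.1 in HNF4G-KO + FOXA1-OE tumors. Its control and HNF4G-KO values did not overlap, with a log2 fold change of 1.02 ± 0.23, adjusted p = 0.0182. OAS1 was at 65.2, 57.4 and 98.2 RPKM in control tumors, 146, 166, 126 and 121 in HNF4G-KO tumors, 85.2, 74.7 and 69.4 in FOXA1-OE tumors and 247, 143, 151, 105 and 143 in HNF4G-KO + FOXA1-OE tumors. The highest control tumor was below the lowest HNF4G-KO tumor, and the log2 fold change was 0.94 ± 0.26, adjusted p = 0.0406. OAS2 was at 23.6, 18.2 and 24.7 RPKM in control tumors, 46.4, 44.6, 34 and 34.4 in HNF4G-KO tumors, 17.4, 30.9 and 19.3 in FOXA1-OE tumors and 76.1, 57.8, 37.7, 39 and 40.6 in HNF4G-KO + FOXA1-OE tumors. It also did not overlap between the groups but missed the threshold, with 0.81 ± 0.25, adjusted p = 0.0578.

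The same 4 genes separated HNF4G-KO + FOXA1-OE tumors from FOXA1-OE tumors, a comparison that shares no sample with the first, although both take their spread from 1 fit. Here OAS3 differed by 1.42 ± 0.30, adjusted p = 0.0132, OASL by 1.22 ± 0.23, adjusted p = 0.00695, OAS2 by 1.12 ± 0.25, adjusted p = 0.0169 and OAS1 by 1.00 ± 0.26, adjusted p = 0.0373. In all 4 genes each HNF4G-KO + FOXA1-OE tumor was above each FOXA1-OE tumor, but with only these 2 groups fitted none of the 44 members passed. The knockout cells were a pool of CRISPR clones. A difference of these clones from the Cas-9 cells cannot be told apart from the knockout in either comparison. For OAS3 the closest values were 47.2 RPKM in HNF4G-KO + FOXA1-OE tumor 5 and 42.5 RPKM in FOXA1-OE tumor 2. The OAS genes lie together at chr12:112905856-113011723 (OAS1, OAS2 and OAS3) and chr12:121017763-121039246 (OASL) in GRCh38. Among the other tested genes within 1 Mb, the median log2 fold change was 0.14 over 30 genes around the first locus in HNF4G-KO against control, with 2 higher and 0 lower, and 0.17 over 56 genes around OASL, with 5 higher and 2 lower.

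**Figure D2:**
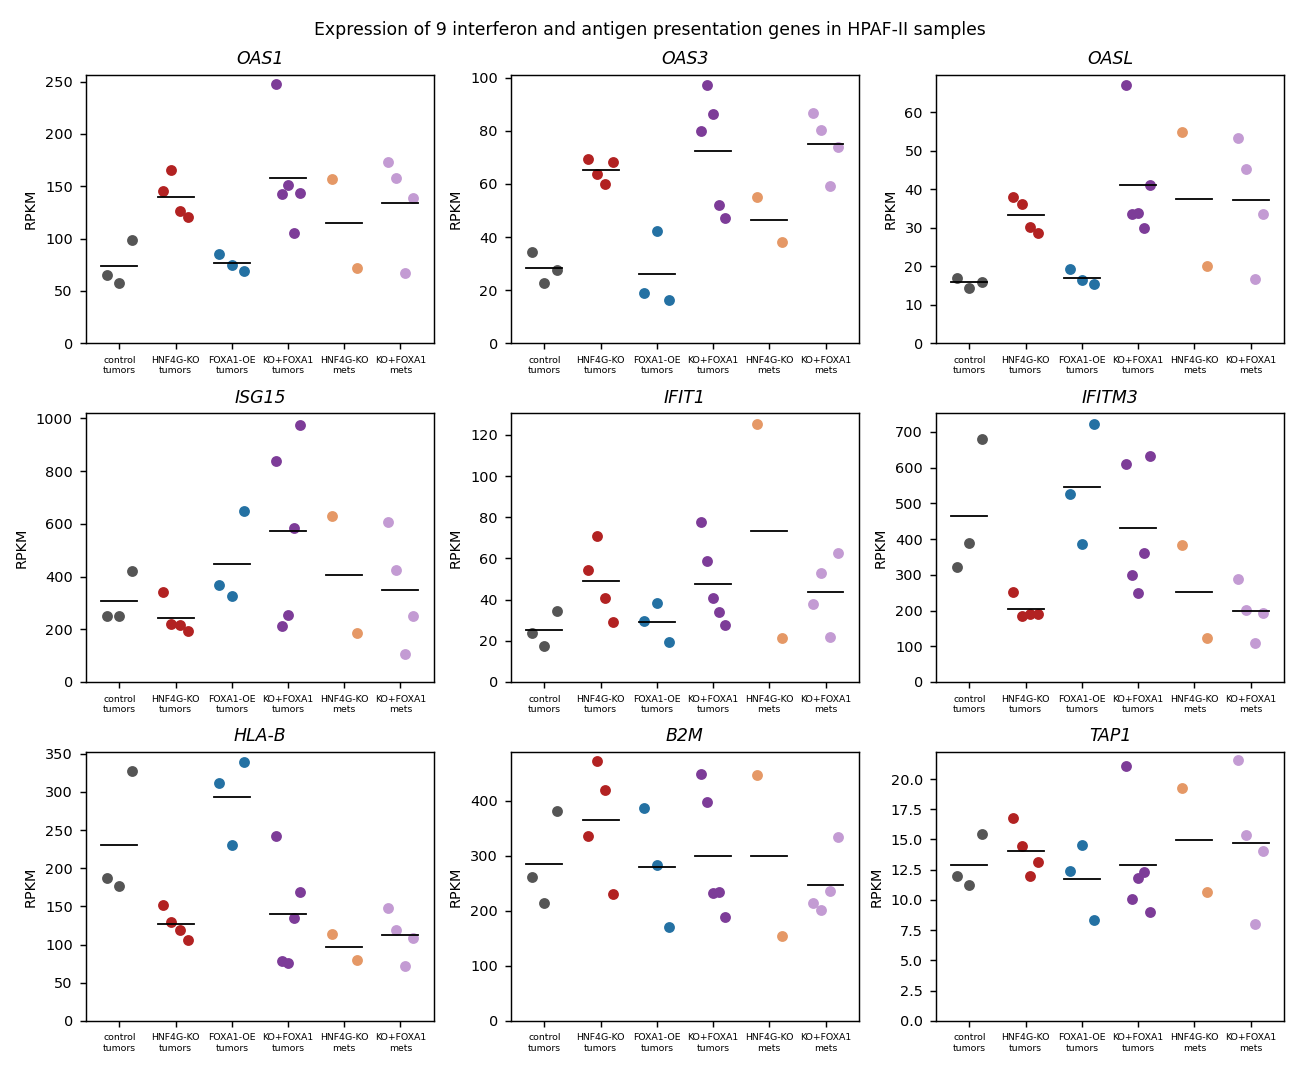
RPKM of OAS1, OAS3, OASL, ISG15, IFIT1, IFITM3, HLA-B, B2M and TAP1 in each HPAF-II sample, 1 dot per sample with a line at the mean over the samples of a group. The HNF4G-KO and control tumors do not overlap for OAS1, OAS3, OASL, IFITM3 and HLA-B, and they overlap for ISG15, IFIT1, B2M and TAP1. These 2 groups do not overlap for 18 of the 44 tested genes and for 41.1% of all genes.

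Among the other effector genes, XAF1, a pro-apoptotic partner of the inhibitor XIAP, was at 6.56, 4.53 and 5.1 RPKM in control tumors, 13.7, 9.79, 10.3 and 12.3 in HNF4G-KO tumors, 4.09, 8.85 and 3.2 in FOXA1-OE tumors and 7.15, 10.6, 4.81, 11.7 and 11.1 in HNF4G-KO + FOXA1-OE tumors. The HNF4G-KO values were all above the control values (0.97 ± 0.27, adjusted p = 0.0392), while the HNF4G-KO + FOXA1-OE and FOXA1-OE values overlapped (0.76 ± 0.27, adjusted p = 0.111). The IFIT proteins bind viral RNA that lacks the host cap methylation. IFIT1 was at 23.8, 17.7 and 34.5 RPKM in control tumors, 54.6, 70.8, 40.8 and 29.1 in HNF4G-KO tumors, 29.5, 38.4 and 19.5 in FOXA1-OE tumors and 77.6, 58.6, 40.7, 33.9 and 27.9 in HNF4G-KO + FOXA1-OE tumors, and IFIT3 at 15.5, 10.4 and 19.9 RPKM in control tumors, 28.9, 21.1, 15.3 and 18.6 in HNF4G-KO tumors, 13.4, 18.2 and 11.8 in FOXA1-OE tumors and 34.7, 26.9, 19, 15.5 and 14.8 in HNF4G-KO + FOXA1-OE tumors. In both genes the control and HNF4G-KO tumors overlapped, with log2 fold changes of 0.90 ± 0.37, adjusted p = 0.141 and 0.44 ± 0.30, adjusted p = 0.367. IFIT2 and IFIT5 differed by 0.44 and 0.66 and did not pass. USP18, which removes ISG15 from proteins and dampens the receptor, was at 4.2, 2.8 and 3.13 RPKM in control tumors, 8.55, 9.09, 6.38 and 6.23 in HNF4G-KO tumors, 3.58, 6.12 and 0.333 in FOXA1-OE tumors and 10.3, 6.72, 7.42, 4.12 and 2.28 in HNF4G-KO + FOXA1-OE tumors. It did not overlap between control and HNF4G-KO tumors but missed the threshold (0.96 ± 0.49, adjusted p = 0.217), and FOXA1-OE tumor 3 stood far below every other sample. MX1, a GTPase that blocks viral nucleocapsids, was at 28.1, 20.3 and 30.6 RPKM in control tumors, 35.9, 26.2, 24.2 and 21.7 in HNF4G-KO tumors, 17.3, 33.5 and 19.7 in FOXA1-OE tumors and 51.9, 40.1, 27.6, 26.3 and 26.9 in HNF4G-KO + FOXA1-OE tumors, and the difference was 0.03 ± 0.28, adjusted p = 0.957. MX2, IFI44, IFI44L and IFI35 differed by -0.11 to 0.29 between HNF4G-KO and control tumors, with no call.

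The IFITM proteins hinder virus entry at membranes, and IFITM2 was the only member lower in the HNF4G-KO tumors at the threshold. IFITM2 was at 23.3, 29.7 and 44 RPKM in control tumors, 16.8, 12.9, 16.2 and 14.8 in HNF4G-KO tumors, 29.9, 24.1 and 42.9 in FOXA1-OE tumors and 22.5, 18.9, 8.31, 20.4 and 34 in HNF4G-KO + FOXA1-OE tumors, with no overlap of control and HNF4G-KO tumors and a log2 fold change of -1.004 ± 0.29, adjusted p = 0.0483. For IFITM3 the values were 323, 389 and 679 RPKM in control tumors, 252, 183, 189 and 191 in HNF4G-KO tumors, 527, 387 and 721 in FOXA1-OE tumors and 611, 300.2, 249, 362 and 632 in HNF4G-KO + FOXA1-OE tumors. All HNF4G-KO values lay below all control values, but the change of -1.12 ± 0.34, adjusted p = 0.0544 missed the threshold. IFITM1 was at 119, 117 and 255 RPKM in control tumors, 109, 113, 104 and 91 in HNF4G-KO tumors, 249, 190.4 and 71.2 in FOXA1-OE tumors and 267, 108, 80.0, 108 and 68.7 in HNF4G-KO + FOXA1-OE tumors (-0.55 ± 0.47, adjusted p = 0.478). All 3 lie at chr11:303655-329475, where the 53 other tested genes within 1 Mb had a median of -0.25 with 1 higher and 5 lower. Reads shared between these similar genes could be split or dropped in counting, so single values within the family are uncertain. Between HNF4G-KO + FOXA1-OE and FOXA1-OE tumors none of the 3 passed, at -0.36, -0.55 and -0.26.

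ISG15, a ubiquitin-like modifier and among the most abundant interferon-induced products, was at 251, 251 and 419 RPKM in control tumors, 339.5, 220.4, 214 and 192 in HNF4G-KO tumors, 369.7, 327 and 648 in FOXA1-OE tumors and 837, 213, 253, 583 and 975 in HNF4G-KO + FOXA1-OE tumors. The spread within groups was wide. HNF4G-KO + FOXA1-OE tumor 5 was at 975 RPKM and tumor 2 at 213 RPKM, and control and HNF4G-KO tumors overlapped (-0.34 ± 0.43, adjusted p = 0.651). IFI6, a mitochondrial and endoplasmic reticulum protein, had the highest RPKM of the 44 genes, at 973, 933 and 1429 RPKM in control tumors, 1159, 992, 1086 and 796 in HNF4G-KO tumors, 1618, 966 and 2798 in FOXA1-OE tumors and 2546, 1247, 907, 2620.2 and 4893 in HNF4G-KO + FOXA1-OE tumors. IFI27 was at 219, 268 and 435 RPKM in control tumors, 257, 259, 264 and 202 in HNF4G-KO tumors, 532, 305 and 665 in FOXA1-OE tumors and 579, 224, 227, 344 and 604 in HNF4G-KO + FOXA1-OE tumors. BST2, the tetherin that holds budding virus at the cell surface, was at 264, 257 and 408 RPKM in control tumors, 283, 220.0, 159 and 198 in HNF4G-KO tumors, 327, 392 and 415 in FOXA1-OE tumors and 349.6, 147, 186, 234 and 326 in HNF4G-KO + FOXA1-OE tumors. None of these 3 passed in HNF4G-KO against control (IFI6 -0.13, IFI27 -0.27, BST2 -0.52). FOXA1-OE tumor 3 and HNF4G-KO + FOXA1-OE tumors 1, 4 and 5 held the 4 highest IFI6 values of all 21 samples, and of these libraries FOXA1-OE tumor 3 and HNF4G-KO + FOXA1-OE tumors 4 and 5 also differed from the rest of their groups in the level of long against short genes (-0.31, -0.23 and -0.59 on the log2 scale, against -0.11 to 0.17 in the other FOXA1-OE and HNF4G-KO + FOXA1-OE tumors).

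The guanylate-binding proteins are GTPases induced mainly by interferon gamma. GBP1 was at 10.5, 9.22 and 14.5 RPKM in control tumors, 6.4, 7.18, 5.74 and 4.68 in HNF4G-KO tumors, 8.34, 8.59 and 3.82 in FOXA1-OE tumors and 7.25, 5.89, 6.09, 6.04 and 2.84 in HNF4G-KO + FOXA1-OE tumors. Its HNF4G-KO values were below all control values, with -0.82 ± 0.29, adjusted p = 0.0886. GBP2 was at 11.8, 7.37 and 22.3 RPKM in control tumors, 10.2, 7.16, 6.64 and 7.35 in HNF4G-KO tumors, 14.7, 14.9 and 20.3 in FOXA1-OE tumors and 7.44, 6.56, 4.26, 7.86 and 4.95 in HNF4G-KO + FOXA1-OE tumors. The 2 comparisons of HNF4G-KO gave different calls for GBP2. Between HNF4G-KO and control the groups overlapped (-0.63 ± 0.29, adjusted p = 0.171), and between HNF4G-KO + FOXA1-OE and FOXA1-OE they did not (-1.26 ± 0.29, adjusted p = 0.0181). The difference between these 2 effects was -0.63 ± 0.40, adjusted p = 0.687, so it was not resolved.

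Of the signaling genes, none passed in any HPAF-II comparison. STAT2 and IRF9 form the DNA-binding complex with a further STAT protein. STAT2 was at 15.3, 13 and 12 RPKM in control tumors, 21.4, 18.4, 18.1 and 21.9 in HNF4G-KO tumors, 18, 16.7 and 32.2 in FOXA1-OE tumors and 23.9, 19.9, 16, 28.4 and 31.8 in HNF4G-KO + FOXA1-OE tumors, and IRF9 at 4.97, 5.25 and 5.9 RPKM in control tumors, 6.84, 7.28, 6.32 and 6.87 in HNF4G-KO tumors, 5.51, 6.9 and 2.22 in FOXA1-OE tumors and 6.54, 5.18, 4.46, 6.29 and 6.45 in HNF4G-KO + FOXA1-OE tumors. Each had HNF4G-KO values above all control values, with log2 fold changes of 0.54 ± 0.23, adjusted p = 0.149 and 0.30 ± 0.24, adjusted p = 0.444. IRF7, which amplifies the type I interferon response, was at 34.9, 35.3 and 65.3 RPKM in control tumors, 43.8, 38, 32.1 and 40.0 in HNF4G-KO tumors, 44.2, 53.5 and 47.9 in FOXA1-OE tumors and 65.6, 26.6, 39.5, 49.9 and 73 in HNF4G-KO + FOXA1-OE tumors. IRF1, the mediator of many gamma interferon targets, was at 4.68, 4.4 and 6.03 RPKM in control tumors, 5.25, 4.58, 3.9 and 4.99 in HNF4G-KO tumors, 6.4, 4.39 and 5.26 in FOXA1-OE tumors and 7.24, 4.03, 5.56, 4.59 and 5.6 in HNF4G-KO + FOXA1-OE tumors. Both overlapped between control and HNF4G-KO tumors, with -0.17 and -0.08 for HNF4G-KO minus control. The RNA sensor IFIH1 ranged from 3.99 RPKM in FOXA1-OE tumor 3 to 14.3 RPKM in HNF4G-KO tumor 2 and differed by 0.25.

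Class I presentation genes were expressed throughout. B2M, the invariant chain, was at 261, 214 and 383 RPKM in control tumors, 336, 473, 419.5 and 229.9 in HNF4G-KO tumors, 388, 283 and 172 in FOXA1-OE tumors and 449, 399, 232, 234 and 188 in HNF4G-KO + FOXA1-OE tumors, and the heavy chain HLA-B at 187, 177 and 327 RPKM in control tumors, 152, 129, 119 and 106 in HNF4G-KO tumors, 312, 230.0 and 339 in FOXA1-OE tumors and 242, 77.8, 75.3, 135 and 169 in HNF4G-KO + FOXA1-OE tumors. HLA-B did not overlap between control and HNF4G-KO tumors, and its difference was -0.81 ± 0.33, adjusted p = 0.137. It differed by -1.01 ± 0.33, adjusted p = 0.0895 between HNF4G-KO + FOXA1-OE and FOXA1-OE tumors, where the groups overlapped. B2M had no such order (0.34 ± 0.36, adjusted p = 0.575). HLA-C was at 314, 289 and 483 RPKM in control tumors, 300.2, 227, 196 and 211 in HNF4G-KO tumors, 415, 358 and 329 in FOXA1-OE tumors and 353, 169.6, 185, 209 and 218 in HNF4G-KO + FOXA1-OE tumors (-0.61 ± 0.26, adjusted p = 0.147), with HNF4G-KO tumor 1 above control tumor 2. HLA-E, the ligand of the NKG2 receptors, was at 122, 97.5 and 175 RPKM in control tumors, 146, 117, 102 and 123 in HNF4G-KO tumors, 192, 139 and 146 in FOXA1-OE tumors and 165, 80.1, 82, 100.01 and 123 in HNF4G-KO + FOXA1-OE tumors (-0.08 ± 0.26, adjusted p = 0.878). Reads from HLA heavy chains can match several of these genes and were aligned to 1 reference allele, so their levels are uncertain.

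The immunoproteasome subunits PSMB8 and PSMB9 cut peptides for class I. PSMB8 was at 34, 36.7 and 64.9 RPKM in control tumors, 34.2, 25.3, 21.4 and 26.2 in HNF4G-KO tumors, 44.1, 39.9 and 41.2 in FOXA1-OE tumors and 44.3, 19.4, 30.4, 27.3 and 27.5 in HNF4G-KO + FOXA1-OE tumors, and PSMB9 at 17.6, 18.7 and 28.4 RPKM in control tumors, 15.9, 13.9, 11.3 and 11.4 in HNF4G-KO tumors, 22.1, 21.2 and 20.5 in FOXA1-OE tumors and 22.4, 15.8, 15.2, 14.3 and 21.5 in HNF4G-KO + FOXA1-OE tumors. Only PSMB9 did not overlap between control and HNF4G-KO tumors, and its -0.66 ± 0.20, adjusted p = 0.0576 missed the threshold. TAP1, the peptide transporter subunit, was at 12, 11.2 and 15.4 RPKM in control tumors, 16.8, 14.5, 12 and 13.1 in HNF4G-KO tumors, 12.4, 14.5 and 8.3 in FOXA1-OE tumors and 21.1, 10.1, 11.8, 12.4 and 9.02 in HNF4G-KO + FOXA1-OE tumors. TAPBP, the tapasin that loads peptides, was at 32.5, 34.6 and 44.2 RPKM in control tumors, 33.4, 25.3, 29.7 and 37.6 in HNF4G-KO tumors, 41.2, 42.7 and 56.4 in FOXA1-OE tumors and 38.4, 39.9, 25.1, 39.1 and 50.1 in HNF4G-KO + FOXA1-OE tumors. NLRC5, the transactivator of class I genes, was at 2.19, 2.03 and 2.61 RPKM in control tumors, 2.93, 2.32, 1.91 and 2.43 in HNF4G-KO tumors, 1.38, 2.25 and 2.11 in FOXA1-OE tumors and 3.16, 1.81, 1.85, 3 and 3.39 in HNF4G-KO + FOXA1-OE tumors. Their differences between HNF4G-KO and control, 0.12, -0.23 and 0.05, were smaller than those of PSMB8 (-0.69) and PSMB9. TAP2 and HLA-F differed by 0.04 and -0.30. The median of the 11 class I genes was -0.23 in HNF4G-KO against control and -0.23 in HNF4G-KO + FOXA1-OE against FOXA1-OE, beside -0.00 and 0.00 for all genes. The 174 other tested genes within 1 Mb of the MHC members (chr6:29722775-33314284) had medians of -0.13 and -0.12.

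Class II genes were low. CIITA, the master transactivator, reached at most 0.11 RPKM and HLA-DRA at most 0.892 RPKM in any sample, and HLA-DPA1 and HLA-DPB1 at most 0.0284 and 0.071 RPKM. CD74, the invariant chain, was at 1.1, 1.15 and 1.38 RPKM in control tumors, 2.76, 1.99, 5.55 and 1.92 in HNF4G-KO tumors, 1.5, 0.97 and 4.72 in FOXA1-OE tumors and 1.34, 1.69, 1.44, 1.12 and 2.86 in HNF4G-KO + FOXA1-OE tumors. It lay above all control tumors in each HNF4G-KO tumor, with 0.79 ± 0.35, adjusted p = 0.163. HLA-DMA, a peptide editor, was at 8.81, 9.41 and 10.1 RPKM in control tumors, 8.67, 7.62, 7.39 and 8.47 in HNF4G-KO tumors, 10.8, 11.5 and 21.5 in FOXA1-OE tumors and 8.94, 7.24, 5.02, 10.7 and 14.8 in HNF4G-KO + FOXA1-OE tumors (-0.21 ± 0.26, adjusted p = 0.632). Its partner HLA-DMB was at 1.11, 0.826 and 1.15 RPKM in control tumors, 1.22, 2.04, 1.13 and 2.12 in HNF4G-KO tumors, 2, 2.4 and 3.71 in FOXA1-OE tumors and 0.471, 0.622, 0.549, 1.06 and 0.938 in HNF4G-KO + FOXA1-OE tumors. HLA-DMB was below every FOXA1-OE tumor in each HNF4G-KO + FOXA1-OE tumor (-1.06 ± 0.20, adjusted p = 0.00634), and HNF4G-KO and control tumors overlapped (0.35 ± 0.20, adjusted p = 0.258). The difference between these 2 effects was -1.41 ± 0.28, adjusted p = 0.209, with an unadjusted p of 0.000176. HLA-DRB1 ranged from 0.256 to 2.98 RPKM.

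HNF4G-KO on the FOXA1-OE background gave 6 of 44 calls, 4 higher (the OAS genes) and 2 lower (GBP2 and HLA-DMB), beside 6.77% of all genes (2.96% higher, 3.8% lower). By role these were 5 of 24 effector genes and 1 of 4 class II genes, and 11 of 44 reached an unadjusted p under 0.05, as did 22.4% of all genes. The median over the 44 was 0.07, and 0.00 over all genes. Counted by overlap, HNF4G-KO and control tumors did not overlap for 18 of the 44 genes (10 higher, 8 lower), and this held for 41.1% of all genes. HNF4G-KO + FOXA1-OE and FOXA1-OE tumors did not overlap for 6 of 44, against 14.3% of all genes. With 3 against 4 mice an exact two-sided permutation test of a single gene cannot go below 0.0571, which those 18 and those 6 genes reached.

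**Figure D3:**
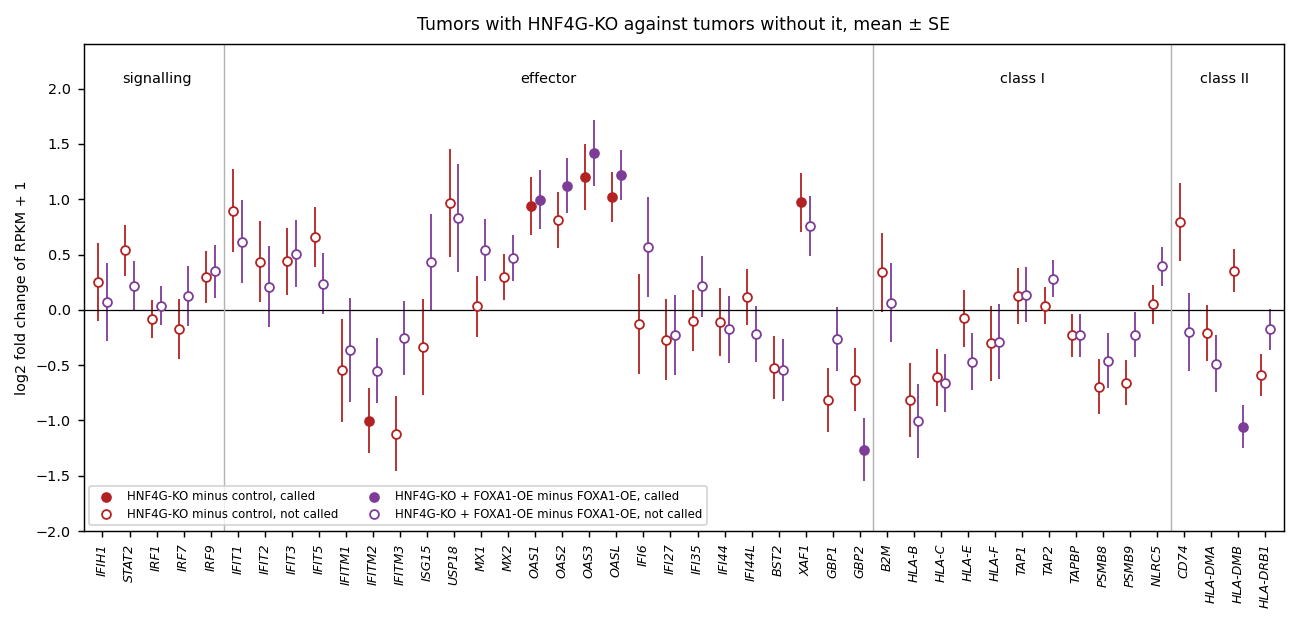
Log2 fold change ± SE of the 44 tested genes for HNF4G-KO minus control tumors and for HNF4G-KO + FOXA1-OE minus FOXA1-OE tumors, with filled symbols for an adjusted p under 0.05 in limma. OAS1, OAS3 and OASL are filled in both comparisons at 0.94 to 1.42, and class I genes other than B2M, TAP1, TAP2 and NLRC5 are below 0 in both.

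Several settings changed these calls. In HNF4G-KO against control, the 5 calls became 0 without control tumor 2 or without HNF4G-KO tumor 2, 3 without control tumor 1, and 1 without control tumor 3 or without HNF4G-KO tumor 1, 3 or 4. The trend with GC content and exon length was then removed from each library. OAS3 (1.06, adjusted p = 0.0231), OASL (0.94, adjusted p = 0.0144) and IFITM2 (-0.80, adjusted p = 0.034) passed, OAS1 (0.66, adjusted p = 0.135) and XAF1 (0.79, adjusted p = 0.0679) did not, and GBP1 (-1.03, adjusted p = 0.00618), IFITM3 (-0.998, adjusted p = 0.0363) and PSMB9 (-0.64, adjusted p = 0.049) did. With the host leukocyte markers as a covariate, 0 of 44 and 0 of 19900 genes passed in that comparison, and OAS3 was at 0.80 (adjusted p = 0.695). The markers and the groups move together and their effects cannot be told apart. In HNF4G-KO + FOXA1-OE against FOXA1-OE, OASL (1.37, adjusted p = 0.0441), GBP2 (-1.73, adjusted p = 0.0291) and HLA-DMB (-1.35, adjusted p = 0.0204) still passed with that covariate. The 6 calls there became 3 without FOXA1-OE tumor 1 (OASL, GBP2 and HLA-DMB) and 3 without FOXA1-OE tumor 3 (OASL, OAS3 and HLA-DMB), whose FOXA1 was at the control level.

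The wider interferon pathway was described from a further list of 77 ligands, receptors, kinases, sensors and effectors, of which 67 were tested. In HNF4G-KO against control 6 of 67 rose and 0 fell, beside the 9.33% of all genes called (4.96% higher), the largest being CTSS, a cathepsin of the class II pathway (1.35), RNF213, an interferon-induced ubiquitin ligase (0.93), and DDX60L, a helicase-like antiviral gene (0.88). In HNF4G-KO + FOXA1-OE against FOXA1-OE 4 of 67 rose and 0 fell, beside 6.77% of all genes (2.96% higher), with CTSS at 1.26, RNF213 at 1.07 and DDX60L at 0.94 leading. The medians of the 67 were 0.24 and 0.19.

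Whether FOXA1 overexpression moved the genes was asked on both backgrounds. In FOXA1-OE against control tumors limma called 0 of 44 genes and 0.0% of all genes, with 3 of 44 and 1021 of all genes at an unadjusted p under 0.05. The 3 were HLA-DMB (0.84 ± 0.21, adjusted p = 0.84), STAT2 (0.64 ± 0.25, adjusted p = 0.84) and GBP1 (-0.69 ± 0.31, adjusted p = 0.84). In HNF4G-KO + FOXA1-OE against HNF4G-KO tumors 0 of 44 passed, beside 0.106% of all genes. Of the 44, 6 had an unadjusted p under 0.05, as did 18.0% of all genes, with ISG15 at 1.29 ± 0.40, adjusted p = 0.214, IFI6 at 1.28 ± 0.42, adjusted p = 0.221 and IFITM3 at 1.12 ± 0.31, adjusted p = 0.206. IFITM3 was higher in every HNF4G-KO + FOXA1-OE mouse than in every HNF4G-KO mouse, for which the exact two-sided permutation p was 0.0286, the smallest that 4 against 4 mice allow. Such a separation held for 2 of 44 members and 13.3% of all genes. For IFITM3 it rests on the average of HNF4G-KO + FOXA1-OE tumors 2 and 3 of 1 mouse. Taken alone, that tumor 3 lay just below HNF4G-KO tumor 1. The combined change, HNF4G-KO + FOXA1-OE against control, shares its control tumors with the comparisons above. It called 4 of 44, all higher (OASL 1.32, OAS3 1.20, OAS2 1.11, OAS1 1.08), beside 3.7% of all genes and 1.79% higher, and 0 of 44 without control tumor 2 and 1 of 44 without control tumor 1, control tumor 3 or HNF4G-KO + FOXA1-OE tumor 1. RNF213 (1.10) and PARP12 (0.68) were the 2 called genes of the wider pathway. No difference in the effect of HNF4G-KO with and without FOXA1-OE passed the threshold for any of the 44 (0 called, beside 0.0352% of all genes). With so few mice per group, this does not show that the effects were equal.

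In the metastases, the first question was how the HNF4G-KO samples compared with their tumors. No member passed in HNF4G-KO metastases against HNF4G-KO tumors, and 0.0% of all genes did (limma, 4 of 44 and 2582 of all genes at an unadjusted p under 0.05). The 2 metastases differed from each other, with 36 of 44 genes higher in metastasis 1. IFIT1 was at 125 and 21.2 RPKM in HNF4G-KO metastases and 37.7, 53, 21.9 and 62.7 in HNF4G-KO + FOXA1-OE metastases. OAS1 was at 157 and 72.3 RPKM in HNF4G-KO metastases and 173, 158, 66.8 and 139 in HNF4G-KO + FOXA1-OE metastases, and OASL at 55 and 19.9 RPKM in HNF4G-KO metastases and 53.3, 45.4, 16.6 and 33.5 in HNF4G-KO + FOXA1-OE metastases. HNF4G-KO metastasis 1 had the highest IFIT1 of all 21 samples, and metastasis 2 was lowest of all samples in 8 of 44 genes. In the 2 pairs from 1 mouse each, 26 of 44 genes were higher in metastasis 1 than in tumor 2, and 36 of 44 were lower in metastasis 2 than in tumor 4.

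In HNF4G-KO + FOXA1-OE mice, metastases against tumors gave 0 of 44 calls beside 0.0151% of all genes. Of the 44 genes, 34 had a log2 fold change below 0, with a median of -0.16 beside 0.01 for all genes, and the 6 with an unadjusted p under 0.05 (8.99% of all genes) were all lower, including IFITM3 (-1.36 ± 0.41, adjusted p = 0.474), IFI6 (-1.28 ± 0.47, adjusted p = 0.529) and ISG15 (-1.28 ± 0.59, adjusted p = 0.555). ISG15 was at 628 and 185 RPKM in HNF4G-KO metastases and 608, 425, 105 and 249 in HNF4G-KO + FOXA1-OE metastases. IFI6 was at 2073 and 935 RPKM in HNF4G-KO metastases and 1371, 1256, 591 and 1279 in HNF4G-KO + FOXA1-OE metastases, and IFITM3 at 382 and 124 RPKM in HNF4G-KO metastases and 289, 201, 108 and 193 in HNF4G-KO + FOXA1-OE metastases. HNF4G-KO + FOXA1-OE metastasis 3 was the lowest for all 3 and the lowest of 21 samples in 11 of 44 genes. OAS3, in contrast, was at 55.1 and 38.1 RPKM in HNF4G-KO metastases and 86.7, 80.4, 59.3 and 74.1 in HNF4G-KO + FOXA1-OE metastases, so that the HNF4G-KO + FOXA1-OE metastases lay within the range of their tumors and the HNF4G-KO metastases below theirs. Metastases 1 and 2, from the mouse of tumor 1, were below that tumor in 36 and 39 of 44 genes, and metastasis 4 was above tumor 4 in 22 of 44 and below it in 22 of 44.

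HNF4G-KO + FOXA1-OE metastasis 3 was the lowest of its group in several other effector genes. IFIT3 was at 30.3 and 11.6 RPKM in HNF4G-KO metastases and 21.3, 24.9, 14.2 and 22.9 in HNF4G-KO + FOXA1-OE metastases. MX1 was at 35 and 12.6 RPKM in HNF4G-KO metastases and 33.3, 47.1, 18.4 and 30.7 in HNF4G-KO + FOXA1-OE metastases, and IFI27 at 413 and 184 RPKM in HNF4G-KO metastases and 353, 258, 118 and 215 in HNF4G-KO + FOXA1-OE metastases. HNF4G-KO metastasis 2 had the lowest MX1, and HNF4G-KO + FOXA1-OE metastasis 3 the lowest IFI27. IFITM1 was at 138 and 41.7 RPKM in HNF4G-KO metastases and 117, 75.5, 43 and 61.3 in HNF4G-KO + FOXA1-OE metastases, BST2 at 219 and 232 RPKM in HNF4G-KO metastases and 225, 239, 116 and 166 in HNF4G-KO + FOXA1-OE metastases. Within the HNF4G-KO + FOXA1-OE group, metastasis 1 had the highest IFITM1. GBP1 was at 6.63 and 3.48 RPKM in HNF4G-KO metastases and 4.51, 4.92, 3.71 and 6.25 in HNF4G-KO + FOXA1-OE metastases, and GBP2 at 4.14 and 3.53 RPKM in HNF4G-KO metastases and 3.76, 6.38, 4.86 and 6.85 in HNF4G-KO + FOXA1-OE metastases. GBP2 in every metastasis was below all 3 control tumors, as it was in most HNF4G-KO and most HNF4G-KO + FOXA1-OE tumors. There were no control metastases, so site and knockout cannot be told apart here. Of the signaling genes, STAT2 was at 15.9 and 17.8 RPKM in HNF4G-KO metastases and 19.9, 21.2, 16 and 20.3 in HNF4G-KO + FOXA1-OE metastases. IRF7 was at 37.6 and 29.8 RPKM in HNF4G-KO metastases and 55.3, 55.6, 19.9 and 36.3 in HNF4G-KO + FOXA1-OE metastases. IRF1 was at 4.68 and 3.39 RPKM in HNF4G-KO metastases and 5.28, 4.48, 3.26 and 3.15 in HNF4G-KO + FOXA1-OE metastases, and IRF9 at 4.72 and 5.55 RPKM in HNF4G-KO metastases and 6, 6.19, 5.34 and 7.66 in HNF4G-KO + FOXA1-OE metastases. IRF7 varied most among these, with HNF4G-KO + FOXA1-OE metastases 1 and 2 high and metastasis 3 low.

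For class I, B2M was at 447 and 155 RPKM in HNF4G-KO metastases and 215, 201, 235 and 335 in HNF4G-KO + FOXA1-OE metastases. HLA-B was at 114 and 79.4 RPKM in HNF4G-KO metastases and 148, 119.5, 71.6 and 108 in HNF4G-KO + FOXA1-OE metastases, and HLA-C at 270.3 and 167 RPKM in HNF4G-KO metastases and 343, 264, 184 and 246 in HNF4G-KO + FOXA1-OE metastases. In these 3 genes HNF4G-KO metastasis 1 exceeded metastasis 2. HLA-E was at 107 and 93.1 RPKM in HNF4G-KO metastases and 133, 105, 98.3 and 106 in HNF4G-KO + FOXA1-OE metastases. TAP1 was at 19.2 and 10.7 RPKM in HNF4G-KO metastases and 21.5, 15.3, 8.01 and 14 in HNF4G-KO + FOXA1-OE metastases, and TAPBP at 23.1 and 34 RPKM in HNF4G-KO metastases and 41.8, 31.6, 40.1 and 29.9 in HNF4G-KO + FOXA1-OE metastases. TAPBP, unlike TAP1, was not low in HNF4G-KO + FOXA1-OE metastasis 3. PSMB8 was at 37 and 21.4 RPKM in HNF4G-KO metastases and 39.6, 30.4, 17.7 and 27.1 in HNF4G-KO + FOXA1-OE metastases. PSMB9 was at 24.9 and 12.6 RPKM in HNF4G-KO metastases and 16.4, 15.2, 9.54 and 12.9 in HNF4G-KO + FOXA1-OE metastases, and NLRC5 at 2.41 and 1.66 RPKM in HNF4G-KO metastases and 4.07, 2.41, 2.15 and 2.51 in HNF4G-KO + FOXA1-OE metastases. The differences of the 11 class I genes between metastases and tumors had a median of -0.11 for HNF4G-KO, and of -0.08 in mice with both alterations. Of class II, CD74 was at 0.542 and 1.28 RPKM in HNF4G-KO metastases and 1.34, 1.19, 2.73 and 0.819 in HNF4G-KO + FOXA1-OE metastases, and HLA-DMA at 8.56 and 11.8 RPKM in HNF4G-KO metastases and 9.31, 9.13, 7.56 and 9.73 in HNF4G-KO + FOXA1-OE metastases. HNF4G-KO metastasis 1 had the lowest CD74 of all samples.

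In the KPC cell lines, most effector and class II genes were near 0. Oas1a, Ifi44l, H2-DMb1, H2-DMb2 and H2-Eb1 were listed at 0 in all 8 libraries, and Tap1, Psmb8, Psmb9, Ifit1 and Oas2 did not exceed 0.04 RPKM. By role, 4 of 5 signaling, 10 of 25 effector, 5 of 10 class I and 0 of 6 class II genes reached 0.3 RPKM. With all 8 libraries, the liver metastasis line against the tumor line gave 0 of 19 calls and 0.0% of all 16682 genes, with 0 of 19 and 213 of all genes at an unadjusted p under 0.05. The groups did not overlap for 0 of 19 genes, against 0.899% of all genes.

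The replicates of each line fell into 2 levels for several genes. Ifitm3 was at 2.92, 3.63, 137 and 118 RPKM in tumor line replicates 1 to 4 and 96.7, 116, 6.27 and 4.05 in liver metastasis line replicates 1 to 4. It was low in tumor line replicates 1 and 2 and in metastasis line replicates 3 and 4, and high in the other 4 libraries. Ifitm2 was at 67.7, 68.5, 167 and 153 RPKM in tumor line replicates 1 to 4 and 136, 158, 74.1 and 57.1 in liver metastasis line replicates 1 to 4. Gbp2 was at 0.194, 0.0581, 2.25 and 1.59 RPKM in tumor line replicates 1 to 4 and 2.36, 2.49, 0.132 and 0.098 in liver metastasis line replicates 1 to 4, and Gbp2b at 0.173, 0.0863, 1.22 and 1.53 RPKM in tumor line replicates 1 to 4 and 1.61, 1.57, 0.0471 and 0.0655 in liver metastasis line replicates 1 to 4. These 3 genes were high in the same 4 libraries as Ifitm3. H2-K1, a class I heavy chain, was at 64.5, 57.2, 33.7 and 20.7 RPKM in tumor line replicates 1 to 4 and 28.3, 26.8, 72.5 and 53.3 in liver metastasis line replicates 1 to 4, the opposite order. B2m was at 69.7, 77.8, 266 and 144 RPKM in tumor line replicates 1 to 4 and 139.6, 131, 105 and 63.6 in liver metastasis line replicates 1 to 4.

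**Figure D4:**
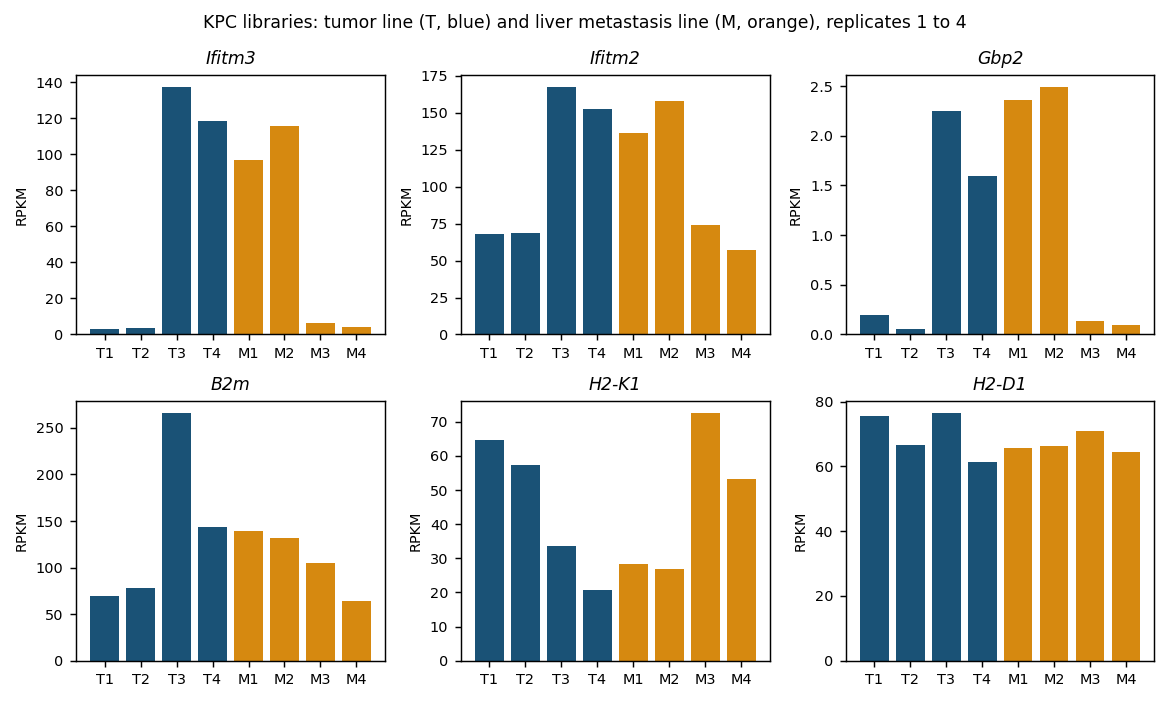
RPKM of Ifitm3, Ifitm2, Gbp2, B2m, H2-K1 and H2-D1 in the 8 KPC libraries, 1 bar per library by line and replicate number. Ifitm3, Ifitm2 and Gbp2 are high in tumor line replicates 3 and 4 and metastasis line replicates 1 and 2, H2-K1 is low there, and H2-D1 is at 61.3 to 76.4 RPKM in all 8.

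Within replicates 1 and 2, the metastasis line was higher by 4.65 (Ifitm3), 1.61 (Gbp2), 1.20 (Gbp2b) and 1.09 (Ifitm2) on the log2 scale, 4 of 19 calls beside 4.24% of all genes (2.31% higher). Within replicates 3 and 4 these genes differed by -4.41, -1.38, -1.17 and -1.28 (metastasis minus tumor line, same order), and H2-K1 was higher by 1.20, 5 of 19 calls beside 7.67% of all genes (3.71% higher, 3.96% lower). With any 1 of the 4 libraries of replicates 1 and 2 left out, 1 or 2 calls remained there. An exchange of the tumor and metastasis labels within 1 pair, which would turn the direction of the line effect in that pair, cannot be told apart from a difference between the pairs. The line effect differed between the pairs for 6 of 19 genes, and for 16.3% of all genes. Since the division into pairs was chosen with the values of Ifitm3 known, these differences and the counts of calls are a description. Ifitm3 is itself among the called genes in each count. No enrichment is read from the shares, and p-values are not given. Of 6 epithelial markers, 4 also differed between the pairs, Muc1 (3.73), Cdh1 (1.62), Krt19 (1.20) and Epcam (-2.13), with Krt8 at 0.70 and Krt18 at 0.67. Their summed level was 2415 to 4759 RPKM in the tumor line and 3206 to 3587 RPKM in the metastasis line, and their part in the result was not tested.

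The other tested genes were not called within either pair or between the pairs. H2-D1 was at 75.4, 66.5, 76.4 and 61.3 RPKM in tumor line replicates 1 to 4 and 65.8, 66.3, 70.8 and 64.4 in liver metastasis line replicates 1 to 4, and Tapbp at 37, 32, 53.9 and 43.3 RPKM in tumor line replicates 1 to 4 and 44.2, 43.5, 46.1 and 40.6 in liver metastasis line replicates 1 to 4. Stat2 was at 4.58, 4.6, 5.09 and 5.13 RPKM in tumor line replicates 1 to 4 and 4.72, 4.82, 6.08 and 5.16 in liver metastasis line replicates 1 to 4. None of these 3 varied by more than 2-fold across libraries. Irf1 was at 11, 11.5, 15.2 and 12.2 RPKM in tumor line replicates 1 to 4 and 14.3, 16.2, 12.1 and 10.3 in liver metastasis line replicates 1 to 4, and Irf9 at 2.47, 2.42, 3.49 and 2.65 RPKM in tumor line replicates 1 to 4 and 2.56, 2.73, 2.52 and 2.41 in liver metastasis line replicates 1 to 4. H2-T23 was at 6.51, 6.32, 15.6 and 7.06 RPKM in tumor line replicates 1 to 4 and 7.9, 7.25, 11.1 and 6.71 in liver metastasis line replicates 1 to 4, with tumor line replicate 3 apart from the others. Bst2 was at 15.8, 11.1, 17 and 10.6 RPKM in tumor line replicates 1 to 4 and 10.3, 11, 17.3 and 12.1 in liver metastasis line replicates 1 to 4. Ifi27 was at 5.08, 2.81, 12.5 and 5.34 RPKM in tumor line replicates 1 to 4 and 5.96, 5.51, 8.04 and 4.62 in liver metastasis line replicates 1 to 4, and Ifitm1 at 1.46, 2.09, 1.71 and 2.97 RPKM in tumor line replicates 1 to 4 and 2.06, 2.64, 3.1 and 1.01 in liver metastasis line replicates 1 to 4. Of 47 tested genes of the wider pathway, 0 passed with all 8 libraries. Samd9l differed by 0.88 within replicates 1 and 2 and by -0.85 within replicates 3 and 4, and Ifi30 by -0.84 and 0.91. The line effect differed between the pairs for 11 of the 47, beside 16.3% of all genes. This is a description, since the pairs were chosen with these data known. Parp14 (-0.76) and Erap1 (-0.58) were also called within replicates 3 and 4.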

How the data were processed

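RNA was sequenced from 21 HPAF-II xenograft samples and 8 KPC cell line libraries, as 50-base single-end reads of a stranded mRNA kit. The values deposited by the authors are RPKM per gene. Per the labels, the submitters' processing notes name STAR 2.6.1a, featureCounts 2.0.4 and DESeq2, with GRCh38 and GRCm38 among the builds. No counts were used here, so edgeR and DESeq2 were not run, and 12 further columns of the mouse table were not used. Genes were named with GENCODE 44 (GRCh38) annotation by identifier without version, and coordinates are from that annotation, since the human build is given differently in the methods and in the labels. Genes averaging 0.3 RPKM or more were tested with limma 3.58.1 (R 4.3.3) on log2(RPKM + 1) with a mean-variance trend, and p-values were adjusted by Benjamini-Hochberg over all tested genes, with a threshold of 0.05. The tumor fit held 4 groups with 1 value per mouse, so HNF4G-KO + FOXA1-OE tumors 2 and 3, from 1 mouse, were averaged. Exact permutation tests were two-sided. Figures were drawn with matplotlib 3.10.9.

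The members, the lists of other genes and the division of the KPC replicates into pairs were chosen with earlier results of these data known. Genes named with values are a panel of members, the 6 called members of largest fold change in each direction per comparison and the 3 such genes of the wider pathway. Normal values were also simulated from the mean and within-group spread of each gene, with 100 genes changed by 1 and 100 by 2 on the log2 scale. For the HNF4G-KO comparison (19900 genes), 60% of changes of 1 and 94% of changes of 2 were recovered. For the KPC comparison (16682 genes) these were 65% and 94%. Genes were drawn independently and no others were changed, so the rates may not hold for the real data. The tumor and metastasis of 1 mouse are paired by animal, with correlations of their deviations from -0.07 to 0.30.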

Additional observations from a re-analysis of the deposited data

Results flagged for a closer look

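Of 96 groups of 4 to 10 values tested for a sample far from the rest, 4 (4.17%) held one, and chance gives about 1 in 20. IRF9 in the mouse of HNF4G-KO + FOXA1-OE tumors 2 and 3, at 4.81 RPKM, lay below the other mice of its group. IFITM3 in HNF4G-KO tumor 1, at 252 RPKM, lay above the other HNF4G-KO tumors, and IFI27 in HNF4G-KO tumor 4, at 202 RPKM, below them. H2-T23 in KPC tumor line replicate 3, at 15.6 RPKM, lay above the other replicates.

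The difference between the KPC lines was opposite in replicates 1 and 2 and in replicates 3 and 4 for several genes. On the log2 scale, the line effect in replicates 3 and 4 minus that in replicates 1 and 2 was -9.05 for Ifitm3, -2.99 for Gbp2, -2.38 for Ifitm2, -2.36 for Gbp2b, -2.12 for B2m and 2.32 for H2-K1. The pairs were chosen with these data known, and why the replicates differ was not tested. The labels of 1 pair may be exchanged, and this cannot be told apart from a difference between the pairs.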

How the results depend on the processing

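Over the alternatives, 6803 of 6963 values of single members kept their side of the threshold, 116 lost the call and 44 gained one. Of the 411 values of called members 0 changed sign, and of the 6552 values of members not called 529 did, none of them past the threshold. Counts of called members moved in the comparisons with many calls, and the cause was not tested. The shares of all genes called under these alternatives are not given beside the counts below. The counts therefore have no background and describe only how far the calls moved. For HNF4G-KO against control (5 called), the count was 1 without the RPKM minimum, 16 with only the 2 groups fitted, 3 with the tumors of 1 mouse kept separate and 0 with the host leukocyte markers as a covariate, and 0 to 3 when each tumor was left out in turn. For HNF4G-KO + FOXA1-OE against FOXA1-OE (6 called), it was 0 with only the 2 groups fitted, 3 with the covariate and 3 to 6 with tumors left out. For HNF4G-KO + FOXA1-OE against control (4 called), it was 1 without the minimum, 0 with only the 2 groups, 0 with the covariate and 0 to 5 with tumors left out. Without FOXA1-OE tumor 3 and HNF4G-KO + FOXA1-OE tumors 4 and 5 together, a choice made after seeing the data, the counts were 14 for HNF4G-KO against control, 7 for HNF4G-KO + FOXA1-OE against control and 1 for the interaction. Without HNF4G-KO metastasis 1, metastases against tumors of HNF4G-KO gave 1 call in place of 0. In the KPC lines, the counts of 4, 5 and 6 became 1 to 2 (replicates 1 and 2), 4 to 5 (replicates 3 and 4) and 5 to 7 (difference of the pairs) with 1 library left out, where a lone library is assumed to vary like the others.

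The tumor numbers and the KPC replicate numbers were not taken to pair the samples in the main fits (correlations of deviations -0.26 to 0.60 and -0.34 to 0.19). The highest, 0.60, was above the 0.30 reached by a tumor and metastasis of 1 mouse. With the tumor number as a replicate block, HNF4G-KO against control gave 7 calls, HNF4G-KO + FOXA1-OE against FOXA1-OE 5 and HNF4G-KO + FOXA1-OE against control 1, and with the KPC number as a block the lines gave 0. With the mouse as a block, both comparisons of metastases with tumors gave 0 calls, as without it.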
